A study of Mus musculus with 2 samples.

Results

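Ccl17, Ccl22, Ccl24, Ccr7 and Fscn1 are 5 of the 32285 genes counted in gingival cells of mice with periodontitis, and were taken as a named set of dendritic cell chemokines with the receptor Ccr7 and the actin-bundling protein fascin. All 5 were found by symbol in both libraries. Recipient mice had received bone marrow in which the labels give a share of 10% Tet2-/- or 10% Tet2+/+ (bone marrow transplantation, BMT), and at 12 weeks after transplantation mice of both groups underwent 5 days of ligature-induced periodontitis, in which a thread tied around a tooth provokes gum inflammation and bone loss. Tet2 encodes a DNA demethylating enzyme whose loss in blood stem cells gives clonal haematopoiesis. Gingival cells were sorted as CD45.2+CD11b+ from 10% Tet2-/- BMT mice and as CD45+CD11b+ from 10% Tet2+/+ BMT mice per the protocol, although the title of the latter sample also names CD45.2. The sort gate therefore goes with the genotype and the effects of gate and genotype cannot be told apart. How many mice were pooled, and their age and strain, are not given in the sources used here.

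Each group was 1 library, with 9596 cells (85289763 unique molecular identifiers, UMIs) kept from 10% Tet2-/- BMT and 11672 cells (87908757 UMIs) from 10% Tet2+/+ BMT. Median depth was 5920 and 5009 UMIs per cell, and 31 cell barcodes were shared by the libraries (0.323% and 0.266% of cells). With 1 library per group there is no replicate and no test, so intervals in parentheses are 95% intervals that cover counting error only. Cells of the libraries also differ in sex-linked transcripts: in conventional dendritic-like cells Xist was at 625 CPM and Y-linked genes at 6.74 CPM in 10% Tet2-/- BMT, against 0 and 129 CPM in 10% Tet2+/+ BMT. Other classes of 10% Tet2-/- BMT were more mixed. Among its macrophage-like cells, 255 had a Xist UMI and no Y-linked UMI, and 148 the reverse. Over all kept cells of 10% Tet2-/- BMT, 4320 had Xist UMIs alone, 553 Y-linked UMIs alone and 308 both. In 10% Tet2+/+ BMT these were 3, 6885 and 4. The labels name the marrow of a group and do not give the origin or genotype of a single cell. The sex-linked difference goes with the group, and effects of sex and genotype cannot be told apart. CPM here means UMIs of a gene scaled to 1000000 UMIs of a cell class in a library. Lymphocytes were present in both libraries despite the CD11b gate (339 and 538 B cell-like, 185 and 305 T cell-like cells), and some of the set's transcripts lay there.

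Chemokines are small secreted proteins that direct cells bearing the matching receptor. Ccl17 and Ccl22 share the receptor Ccr4, carried by subsets of T cells; Ccl24 (eotaxin-2) acts on Ccr3, best known on eosinophils. Ccr7 answers to Ccl19 and Ccl21 and takes antigen-loaded dendritic cells, naive T cells and B cells to lymph nodes. A dendritic cell that matures in a tissue switches on Ccr7, and Fscn1 bundles the actin of its long cell processes.

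Ccl22 and Ccl17 lie near each other on chromosome 8. In GENCODE M21 on GRCm38, Ccl22 spans chr8:94745590-94751699 and Ccl17 spans chr8:94810453-94812036, both on the plus strand, 58.8 kb apart with 1 protein-coding gene, Cx3cl1, between them. Fscn1 spans chr5:142960343-142973185 on the plus strand and Ccl24 chr5:135569937-135573049 on the minus strand, and Ccr7 spans chr11:99144196-99155077 on the minus strand. The transcript with the most exons had 3 for Ccl17, 4 for Ccl22, 4 for Ccl24, 3 for Ccr7 and 6 for Fscn1. The kit primes at the 3' ends of transcripts, so counts do not separate the 2 Ccl22 or 7 Fscn1 transcript models.

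The sequence before the start site is shown for the 3 genes that had an entry in the RefSeq promoter table (GRCm38.p6). Ccl24 and Ccr7 had none there. The plus strand is given 5′ to 3′, ending before the first base that GENCODE places in the gene. Capitals mark matches to the cyclic AMP response element (CRE, letters TGACGTCA), the TATA box with the letters TATAAA and the STAT motif with the letters TTCNNNGAA. The kappaB motif was searched as well, each on both strands, over the 250 bases before the RefSeq start, and no matches overlapped. These regions are chr8:94745434-94745589 for Ccl22, chr8:94810203-94810452 for Ccl17 and chr5:142960105-142960342 for Fscn1.
Ccl22: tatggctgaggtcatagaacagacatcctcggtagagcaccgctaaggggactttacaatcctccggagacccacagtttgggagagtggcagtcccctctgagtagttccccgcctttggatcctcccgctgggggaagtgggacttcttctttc
Ccl17: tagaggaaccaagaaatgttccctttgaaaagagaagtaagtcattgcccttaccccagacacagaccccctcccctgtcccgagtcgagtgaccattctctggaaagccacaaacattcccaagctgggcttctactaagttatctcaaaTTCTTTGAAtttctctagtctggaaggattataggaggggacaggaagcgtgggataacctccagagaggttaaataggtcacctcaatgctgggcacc
Fscn1: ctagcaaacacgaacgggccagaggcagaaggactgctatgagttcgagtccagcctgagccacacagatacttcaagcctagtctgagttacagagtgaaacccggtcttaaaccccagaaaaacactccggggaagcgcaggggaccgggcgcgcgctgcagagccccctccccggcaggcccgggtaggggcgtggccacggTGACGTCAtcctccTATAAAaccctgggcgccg

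A STAT match lay 99 to 91 bases before the Ccl17 start, and Fscn1 had a CRE match 45 to 38 bases and a TATA match 31 to 26 bases before its start. None of the 4 motifs was found in the Ccl22 window, and no kappaB match in any of the 3 windows. Among 32851 promoters in the table, 7.02% held the STAT motif, 1.55% the CRE, 12.4% the TATA motif and 3.9% the kappaB motif in the same window. No motif matched in both chemokine windows. The Fscn1 window was 62.4% G and C, Ccl22 53.6% and Ccl17 47.6%, with a median of 52.4% over all promoters.

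Cells were grouped without use of the 5 genes, which were left out of the clustering and of the marker lists. Mature dendritic-like cells numbered 45 in 10% Tet2-/- BMT and 36 in 10% Tet2+/+ BMT. They were 0.469% (0.342 to 0.627) and 0.308% (0.216 to 0.427) of kept cells, intervals that overlap. As a share of mature and conventional dendritic-like cells together they were 14.7% and 13.2%. All 12 mature dendritic markers (Cacnb3, Il4i1, Apol7c, Socs2, Tbc1d4, Slco5a1, H2-M2, Serpinb6b, Zmynd15, Nudt17, Il12b and Cd200) were detected in the class in both libraries, with a summed level of 4561 and 4256 CPM. Single markers were less alike. Il12b (1021 and 161 CPM) and H2-M2 (283 and 94 CPM) were higher in 10% Tet2-/- BMT. Apol7c (142 and 363 CPM) and Tbc1d4 (718 and 1167 CPM) were lower there. Conventional dendritic-like cells (261 and 237) carried all 13 of their markers at 2635 and 2465 CPM. Neutrophil markers summed to more, 5314 and 6007 CPM in the conventional and 11655 and 13761 CPM in the mature class. Monocyte markers summed to 1378 and 1800 CPM in the conventional class. Clusters were named from these lists, so detection of a class's own markers is no independent check on its name. Plasmacytoid dendritic-like cells were 9 and 7.

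**Figure D1:**
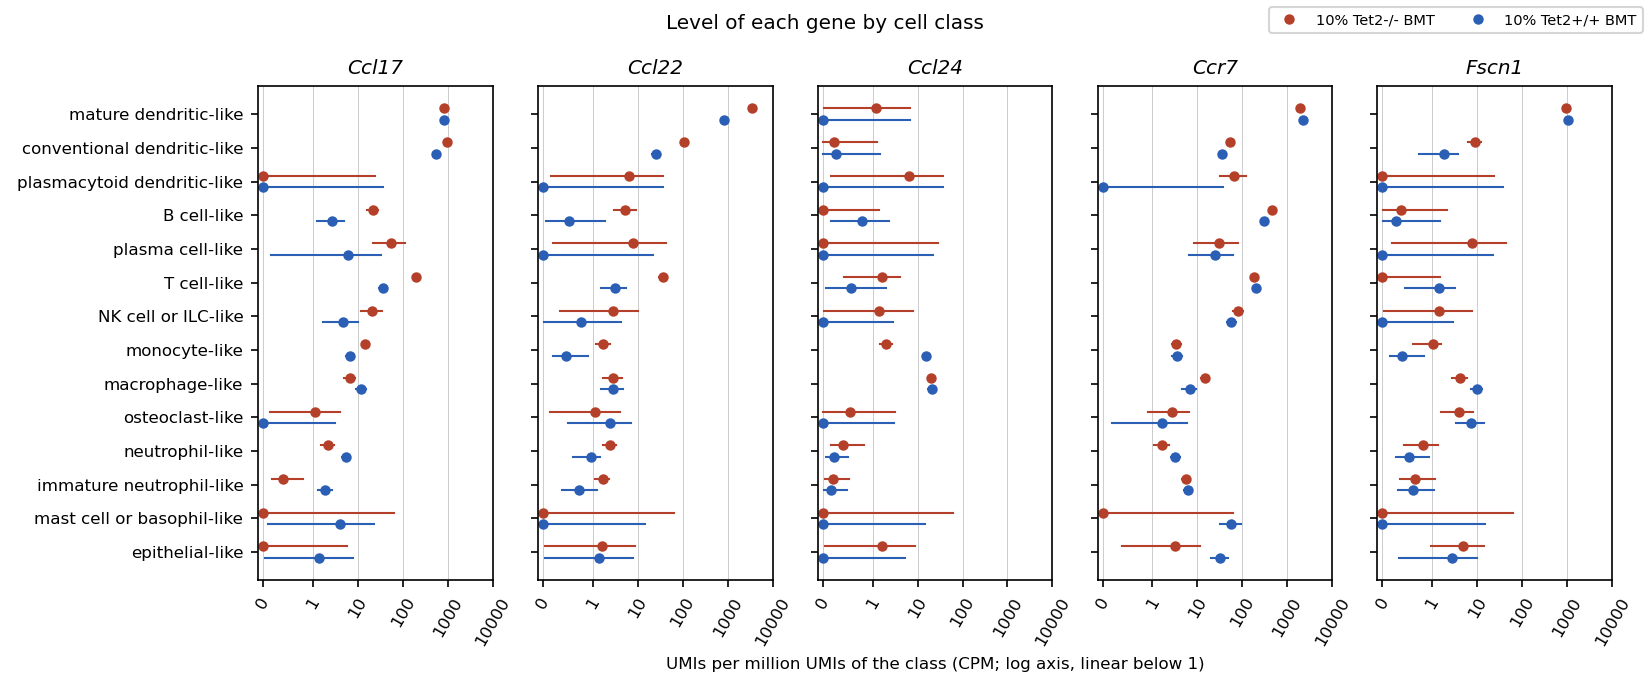
CPM of each gene (log axis, linear below 1) in every named cell class, in 10% Tet2-/- BMT (red) and 10% Tet2+/+ BMT (blue), with bars for the 95% Poisson interval. Ccr7 and Fscn1 were highest in mature dendritic-like cells in both libraries, Ccl22 was highest there and higher in 10% Tet2-/- BMT, and Ccl24 was at 1 UMI or none there.

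Ccr7 was the most widespread of the set. In mature dendritic-like cells it stood at 1897 CPM (1804 to 1993) in 10% Tet2-/- BMT and 2243 CPM (2120 to 2371) in 10% Tet2+/+ BMT, and a Ccr7 UMI was found in 41 of 45 and 31 of 36 cells (91.1% and 86.1%). B cell-like cells followed at 466 CPM (441 to 493) and 310 CPM (292 to 328), then T cell-like cells at 186 CPM (170 to 204) and 201 CPM (186 to 216). The intervals of these 3 classes did not overlap within either library. NK or ILC-like cells (80.3 and 56.9 CPM) and conventional dendritic-like cells (52.6 and 35.4 CPM) came next among classes with 50 or more cells in each library. The interval of the former was above that of the latter in both libraries (61 to 104 against 46 to 59.7, and 44.6 to 71.4 against 29.6 to 41.9). Neutrophil-like cells, taken as the background for shares of cells, held 1.62 and 3.22 CPM. A Ccr7 UMI occurred in 0.734% and 1.27% of them, at a median depth of 4010 and 3926 UMIs against 17807 and 14918 in the mature class. After thinning each cell to 500 UMIs the shares were 55.2% and 58.6% in mature dendritic-like cells, 21.8% and 15.2% in B cell-like cells and 0.0855% and 0.174% in neutrophil-like cells. Of all Ccr7 UMIs, mature dendritic-like cells held 37.6% and 33.4%, from 0.966% and 0.629% of all UMIs. B cell-like cells held 29.5% and 31.7%, and T cell-like cells 11.3% and 19.3%.

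Fscn1 was nearly confined to the mature class, which held 85.2% (82.7 to 87.5) of its UMIs in 10% Tet2-/- BMT and 84.2% (81.3 to 86.8) in 10% Tet2+/+ BMT. Its level there was 945 CPM (879 to 1013) and 1050 CPM (966 to 1139), with a UMI in 32 of 45 and 26 of 36 cells. Of the cells with 10 or more Fscn1 UMIs, 25 of 26 and 18 of 18 were mature dendritic-like. Macrophage-like cells were at 4.12 and 9.75 CPM, and conventional dendritic-like cells at 8.76 and 1.85 CPM. Of the classes with 50 or more cells in each library, macrophage-like cells had the highest mean Fscn1 level, yet held only 3.07% and 6.96% of its UMIs. Every other named class lay under 10 CPM in each library.

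Ccl22 was also centred on mature dendritic-like cells, with 75% (73.6 to 76.4) and 70.3% (66.6 to 73.8) of its UMIs there. Conventional dendritic-like cells held a further 12.5% and 14.8%. Ccl17 lay the other way round: conventional dendritic-like cells held 66.6% (65.5 to 67.8) and 67% (65.3 to 68.6) of its UMIs and mature ones 10.4% and 14.6%. By level the order of the classes changed between libraries. In 10% Tet2-/- BMT Ccl17 was at 988 CPM (959 to 1017) in conventional and 835 CPM (774 to 900) in mature dendritic-like cells, while in 10% Tet2+/+ BMT it was at 547 CPM (524 to 571) and 817 CPM (743 to 896). A Ccl17 UMI was found in 23.8% and 25.3% of conventional dendritic-like cells and in 53.3% and 61.1% of mature ones. In neutrophil-like cells these shares were 0.76% and 1.37%.

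Ccl24, an eosinophil attractant, did not share this pattern. Mature dendritic-like cells had 1 UMI of it in 10% Tet2-/- BMT, and 0 of 36 cells in 10% Tet2+/+ BMT had any. A limit of 3 counts over the 36 cells allows a share of cells with a UMI of up to 8.33%. Conventional dendritic-like cells had 1 UMI in each library. Its UMIs, 439 and 445 in all, lay in macrophage-like cells (20.1 and 20.7 CPM), in monocyte-like cells (2.01 and 15.2 CPM) and in an unnamed cluster led by Arg1 and Spp1 (83.5 and 104 CPM). Within the macrophage-like class the cluster led by Pf4 and Mrc1, genes of resident macrophages, was highest at 45.6 CPM (35.8 to 57.2) and 67.6 CPM (53.8 to 84), with a Ccl24 UMI in 21 of 106 and 15 of 85 cells. The cluster led by C1qa and Ccl12 was at 12.1 and 5.29 CPM.

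**Figure D2:**
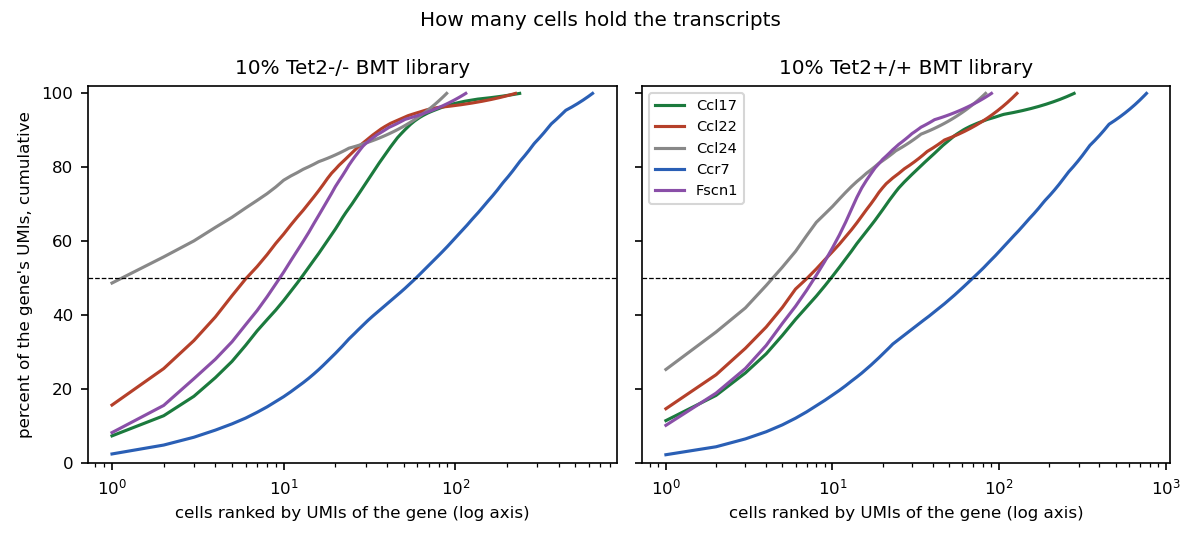
Cumulative share of each gene's UMIs (percent) over cells ranked by their UMIs of the gene (log axis), with the dashed line at 50%. For Ccl24, 2 cells of 10% Tet2-/- BMT and 5 of 10% Tet2+/+ BMT held 50% of the UMIs, whereas Ccr7 took 59 and 70 cells.

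The transcripts of the chemokines came from few cells. Of the Ccl22 UMIs, 50% lay in 7 cells of 10% Tet2-/- BMT (3798 UMIs over 224 cells) and in 8 cells of 10% Tet2+/+ BMT (643 UMIs over 128 cells). For Ccl17 it was 13 cells of 237 and 10 cells of 282, and for Fscn1 10 of 115 and 8 of 90. Ccl24 was the most extreme, since 1 cell of the Arg1-led cluster held 214 of the 439 UMIs of 10% Tet2-/- BMT and 1 monocyte-like cell held 113 of the 445 of 10% Tet2+/+ BMT. Ccr7 was spread over 630 and 767 cells, 6.57% of cells in each library. Levels summed over a class therefore rest on a handful of cells for the chemokines, and the ratios of the 5 genes by class are drawn also without the highest cell of each library.

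**Figure D3:**
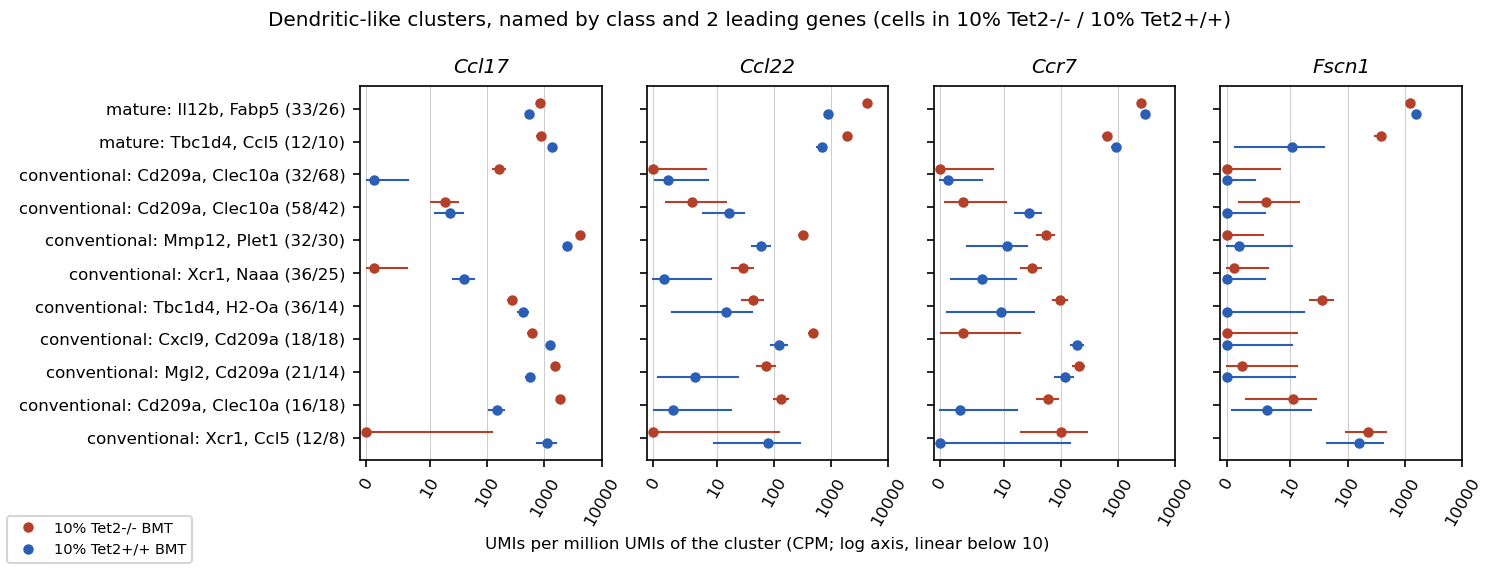
CPM (log axis, linear below 10) of 4 of the genes in each mature or conventional dendritic-like cluster, labelled by its 2 leading genes and its cell numbers, in 10% Tet2-/- BMT (red) and 10% Tet2+/+ BMT (blue), with 95% Poisson bars. Ccr7 and Fscn1 peaked in the mature cluster led by Il12b and Fabp5, and Ccl17 in the conventional cluster led by Mmp12 and Plet1.

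The dendritic-like cells were not uniform. The mature class consisted of a cluster led by Il12b and Fabp5 (33 and 26 cells), where each of the 12 markers passed the naming rule, and a cluster led by Tbc1d4 and Ccl5 (12 and 10 cells), where 7 did. Every cell of the first cluster had a Ccr7 UMI, 33 of 33 and 26 of 26, at 2485 CPM (2356 to 2619) and 2902 CPM (2731 to 3081). The second cluster stood at 646 CPM (552 to 750) and 930 CPM (796 to 1080), with a UMI in 8 of 12 and 5 of 10 cells. Fscn1 split them further: it was at 1212 and 1572 CPM in the first cluster, with a UMI in 30 of 33 and 24 of 26 cells, and in the second only 2 cells of each library had any, 99 UMIs in 10% Tet2-/- BMT (76 of them in 1 cell) and 2 UMIs in 10% Tet2+/+ BMT. Ccl17 did not split that way. It was at 825 and 540 CPM in the first cluster and 858 and 1368 CPM in the second.

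Among conventional dendritic-like cells, Ccl17 peaked in a cluster led by Mmp12, Plet1 and Mgl2 (32 and 30 cells), at 4146 CPM (3989 to 4306) in 10% Tet2-/- BMT and 2443 CPM (2310 to 2581) in 10% Tet2+/+ BMT. A Ccl17 UMI was present in 30 of 32 and 27 of 30 of these cells. Mgl2, a lectin of type 2 dendritic cells, and Epcam were among its 10 leading genes. In the cluster led by Xcr1 and Naaa, genes of type 1 dendritic cells (36 and 25 cells), Ccl17 was under 50 CPM in both libraries. Ccr7 and Fscn1 were low in the Ccl17-rich cluster. Ccr7 was at 54.6 and 11.6 CPM there, and Fscn1 was at 0 UMIs in 10% Tet2-/- BMT and 1 UMI in 10% Tet2+/+ BMT.

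Detection together was counted in single mature dendritic-like cells, of which 91.1% and 86.1% had a Ccr7 UMI whatever else they held. A Ccr7 UMI accompanied Fscn1 in 32 of 32 cells with Fscn1 in 10% Tet2-/- BMT and in 24 of 26 in 10% Tet2+/+ BMT. It accompanied Ccl22 in 34 of 35 and 27 of 28 cells, and Ccl17 in 23 of 24 and 20 of 22. All 4 of Ccl17, Ccl22, Ccr7 and Fscn1 had a UMI in 19 of 45 and 14 of 36 cells, while 2 cells of each library had none of the set. In conventional dendritic-like cells, Ccr7 accompanied Ccl17 in 16 of 62 and 11 of 60 cells. The 2 chemokines overlapped there in 26 cells, 41.9% of Ccl17 cells and 63.4% of Ccl22 cells, in 10% Tet2-/- BMT, and in 20 cells, 33.3% and 87%, in 10% Tet2+/+ BMT. These cells were deep (median 16660 and 14767 UMIs in the conventional class), and the part of depth in detection together was not tested.

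The question the design poses is whether these genes differ between gingival cells of 10% Tet2-/- and 10% Tet2+/+ BMT mice. In mature dendritic-like cells Ccl22 was higher in 10% Tet2-/- BMT, and Ccl17, Ccr7 and Fscn1 differed by less than 1.5-fold, a call that other choices of cells changed for Ccl17 and Fscn1. Of the 5 genes, 4 were eligible (a level of at least 50 CPM in a library, with at least 100 UMIs counted in the libraries together), and 1 was past 1.5-fold on the log2(CPM + 10) scale. Over all 1728 eligible genes in this class, 85 were higher (4.92%) and 54 lower (3.12%), 8.04% in all.

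**Figure D4:**
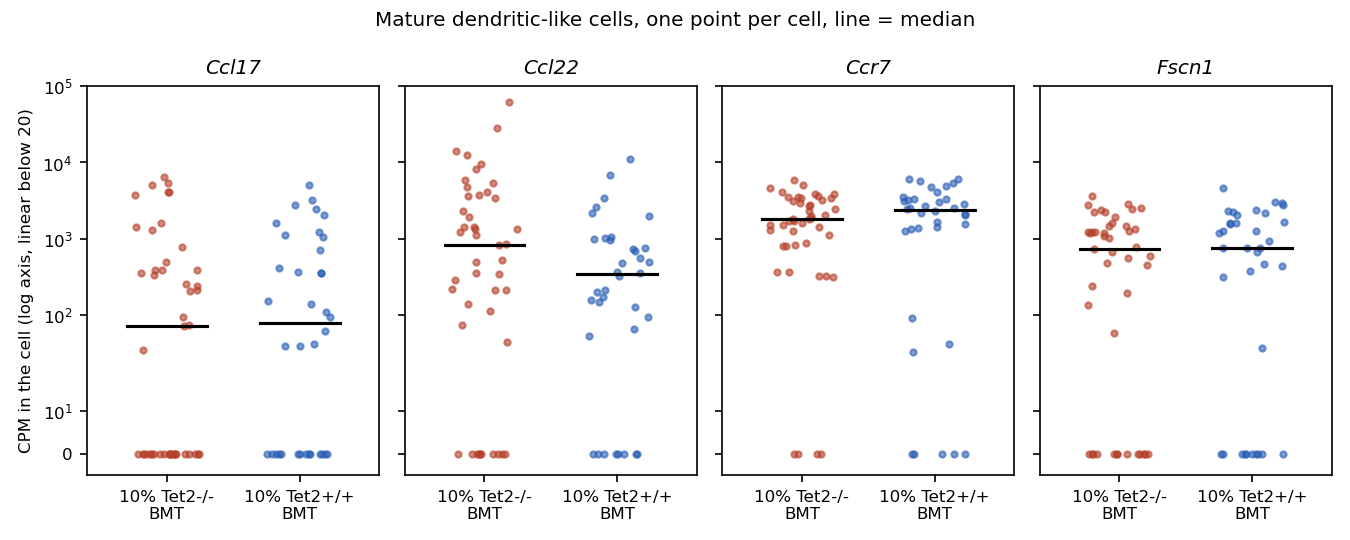
CPM of 4 genes in each mature dendritic-like cell (log axis, linear below 20), 45 cells of 10% Tet2-/- BMT and 36 of 10% Tet2+/+ BMT, with the median as a line. The Ccl22 points of 10% Tet2-/- BMT reach 61619 CPM and those of 10% Tet2+/+ BMT 11156 CPM, and the ranges of all 4 genes overlap.

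For Ccl22, 10% Tet2-/- BMT had 2850 UMIs, a level of 3461 CPM (3335 to 3590), and 10% Tet2+/+ BMT 452 UMIs, a level of 817 CPM (743 to 896), a ratio of 4.24 (3.84 to 4.69). By cell, the lowest value was 0, the median 831 CPM and the highest 61619 CPM in 10% Tet2-/- BMT, against 0, 343 CPM and 11156 CPM. The share of cells with a UMI was the same, 77.8% in each, and 24 of 45 and 17 of 36 cells had 10 or more UMIs. The cells of the libraries overlapped over most of their range: 4 of 45 cells lay above the highest cell of 10% Tet2+/+ BMT, and the 5 highest cells held 60.4% and 58.8% of the UMIs of the class in their library. Without the highest cell of each library the ratio was 4.18. In the Il12b-led cluster it was 4.75 (4.23 to 5.34). In the Tbc1d4-led cluster it was 2.75, and 1.17 without the highest cells.

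Ccl17, the other Ccr4 ligand, stood at 835 CPM (774 to 900) and 817 CPM (743 to 896) in the same cells, a ratio of 1.02 (0.907 to 1.15), with per-cell medians of 72.9 and 79.1 CPM. The Ccl17 ratio moved with the choice of cells: it was 2.3 when cells needed 1000 UMIs, 2.32 when the 5 genes were kept among the clustering genes and 1.56 at a clustering resolution of 0.5. It was 1.53 (1.29 to 1.81) in the Il12b-led cluster and 0.628 (0.522 to 0.754) in the Tbc1d4-led one, on opposite sides of 1. Ccr7 had a ratio of 0.846 (0.784 to 0.912) with per-cell medians of 1800 and 2383 CPM, and Fscn1 one of 0.9 (0.807 to 1) with medians of 743 and 769 CPM. When cells needed 1000 UMIs the Fscn1 ratio was 0.583, lower by the rule. For both, the values of the libraries overlapped across nearly the whole range.

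Other transcripts moved within this small class. Plasma cell markers summed to 2713 CPM in 10% Tet2-/- BMT and 61.4 CPM in 10% Tet2+/+ BMT, with 0 and 2 of the 6 markers at 0. Of these markers, Jchain had 2113 UMIs in 2 cells of 10% Tet2-/- BMT, nearly all of them in 1 cell, against 1 UMI in 10% Tet2+/+ BMT. Neutrophil markers, all 10 detected, summed to 11655 and 13761 CPM. B cell markers, all 7 detected, summed to 323 and 134 CPM, and T cell markers, all 8 detected, to 390 and 336 CPM. Their part in the Ccl22 difference was not tested. With the 8% of cells of highest doublet score removed, the Ccl22 ratio was 4.22. That removal took 2 of the 45 and 1 of the 36 cells of the class, so it is no check on doublets. Cells with a Xist UMI and no Y-linked UMI were 35 of the 45 in 10% Tet2-/- BMT and had 3965 CPM of Ccl22, against 837 CPM in the 30 cells of 10% Tet2+/+ BMT with a Y-linked UMI and no Xist UMI. The 2 cells of 10% Tet2-/- BMT with a Y-linked UMI and no Xist UMI had 7 Ccl22 UMIs, 144 CPM (58 to 297), lower than those 30 cells.

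In conventional dendritic-like cells 3 of the 5 genes were eligible, and Ccl17 and Ccl22 were higher in 10% Tet2-/- BMT, where 21 of all 2621 eligible genes were (0.801%, with 1.14% lower and 1.95% in all). Ccl22 was at 107 CPM (97.5 to 117) and 25.1 CPM (20.3 to 30.6), a ratio of 4.27 (3.42 to 5.37), and 5.18 without the highest cells. It reached the 50 CPM needed for eligibility in 10% Tet2-/- BMT alone, so its call is not read against that share. A Ccl22 UMI was found in 15.7% and 9.7% of cells, and 9 of 261 and 2 of 237 cells had 10 or more. Ccl17 had a ratio of 1.8 (1.71 to 1.9), and 1.93 without the highest cells. The share of cells with a Ccl17 UMI was not higher (23.8% and 25.3%, intervals 18.7 to 29.4 and 19.9 to 31.4), but 44 of 261 and 31 of 237 cells had 10 or more UMIs. In the 6 cells of 10% Tet2-/- BMT with a Y-linked UMI and no Xist UMI, against 190 such cells of 10% Tet2+/+ BMT, the Ccl17 ratio was 0.347.

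The Ccl17 ratio varied among the conventional clusters. It was 1.7 (1.59 to 1.82) in the Mmp12-led cluster, and 2.02 without the highest cells. It was 0.479 (0.398 to 0.573) in a cluster led by Cxcl9 and Cd209a, of 18 cells in each library with a UMI in 6 and 5 of them. Ccl22 in these clusters was higher in 10% Tet2-/- BMT, at 5.33 (3.64 to 8.05) in the Mmp12-led cluster and 3.92 (2.76 to 5.65) in the Cxcl9-led one. Ccr7 in the conventional class was at 52.6 and 35.4 CPM, a ratio of 1.49 (1.2 to 1.85). Without the highest cell of each library it was at 46.4 and 25.2 CPM, a ratio of 1.84, which is past the rule. Fscn1 was not eligible, with 39 UMIs in 16 cells and 7 UMIs in 4 cells. Markers of mature dendritic cells in the conventional class summed to 288 and 263 CPM.

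**Figure D5:**
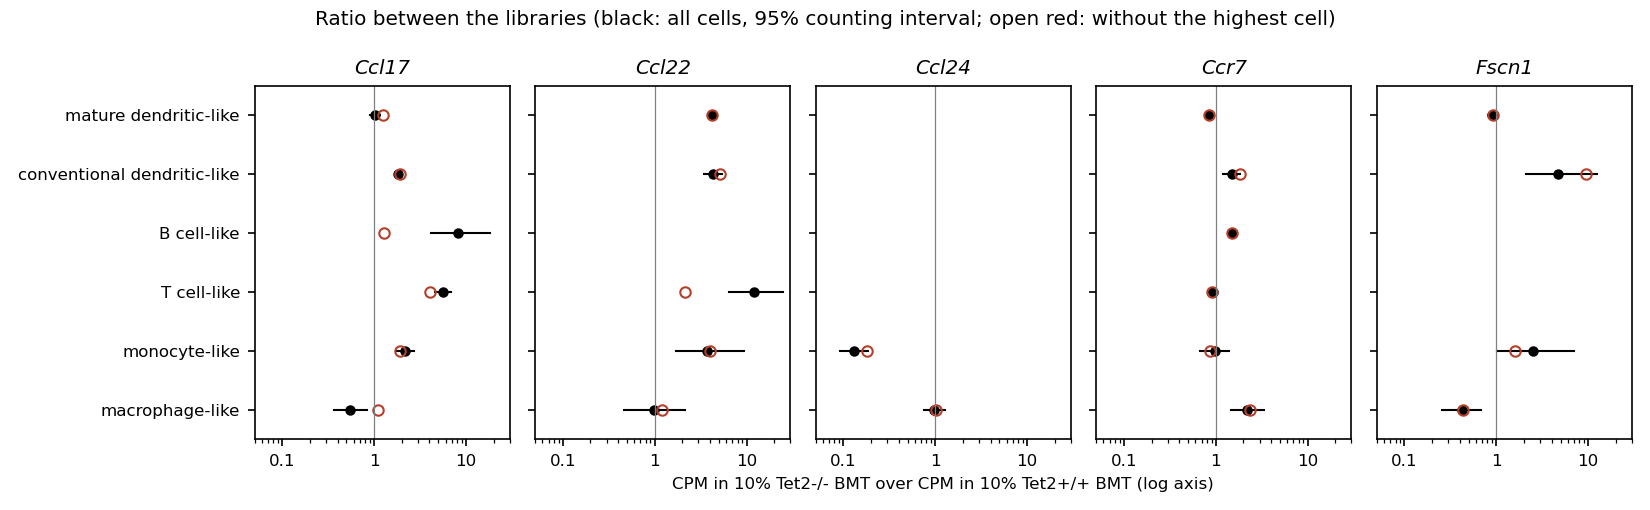
Ratio of CPM in 10% Tet2-/- BMT to CPM in 10% Tet2+/+ BMT (log axis) for each gene in 6 classes, as black points with 95% counting intervals, and without the highest cell of each library as open red points. Pairs with fewer than 20 UMIs over both libraries are left out. Ccl22 kept a ratio above 4 in both dendritic-like classes without the highest cells, while in T cell-like cells it fell from 12 to 2.12.

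Outside dendritic-like cells, Ccr7 in B cell-like cells was 1.51 times as high in 10% Tet2-/- BMT (1.39 to 1.63), just under the 1.5-fold rule once 10 CPM were added, in a class where 1.84% of 2776 genes were higher and 0.648% lower (2.49% in all). Of 12 alternatives, 7 left it under the rule and the others put it past. A Ccr7 UMI was found in 80.8% (76.2 to 84.9) and 64.5% (60.3 to 68.5) of these cells at close median depths of 5516 and 5415 UMIs, and after thinning in 21.8% and 15.2%. The ratio was 1.49 (1.35 to 1.64), 1.6 (1.36 to 1.88) and 1.95 (1.37 to 2.8) in the 3 B cell-like clusters. In T cell-like cells Ccr7 did not follow, with a ratio of 0.928 (0.825 to 1.04) and a UMI in 50.3% and 43.9% of cells. Whether the B cell and T cell ratios differ could not be tested with 1 library per group.

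T cell-like cells also carried Ccl17, at 200 CPM (183 to 218) and 35.5 CPM (29.6 to 42.2), the higher of the 2 eligible genes there, in a class with 1.88% of 2978 genes higher and 1.54% lower (3.43% in all). It too was eligible through 10% Tet2-/- BMT alone. Only 15 of 185 and 16 of 305 cells had a UMI, and 1 cell held 290 of the 506 UMIs of 10% Tet2-/- BMT. Without the highest cell of each library the levels were 86.2 and 21.5 CPM. In the same class 7 of the 9 eligible resident macrophage genes were higher in 10% Tet2-/- BMT (median log2 ratio 0.87, against -0.01 over all eligible genes) as were 3 of 11 antigen presentation genes, and none was lower. Their part in the Ccl17 level of T cell-like cells was not tested. For comparison, barcodes with 1 to 50 UMIs, which hold free RNA, had 62.2 and 62.8 CPM of Ccl17. Free RNA was estimated from B cell transcripts at 15.8% and 16.6% of the UMIs of neutrophil-like cells. Those cells held 2.14 and 5.47 CPM of Ccl17. The part of free RNA in the Ccl17 level of T cell-like cells was not tested.

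Ccl24 in macrophage-like cells stood at 20.1 CPM (16.9 to 23.8) and 20.7 CPM (16.9 to 25.2), a ratio of 0.972 (0.747 to 1.27), and none of the 5 genes was eligible there, where 0.556% of 2700 genes were higher and 0.704% lower (1.26% in all). The Ccl24 ratio was 0.422 at a clustering resolution of 0.5 and 0.434 for Xist-carrying against Y-carrying cells, both past the rule. In monocyte-like cells it was lower in 10% Tet2-/- BMT, at 2.01 CPM (1.44 to 2.74) and 15.2 CPM (13.5 to 17.2), a level under the 50 CPM needed for eligibility. In that class 2.13% of 3009 eligible genes were higher and 1.63% lower (3.76% in all). Most of it came from a monocyte-like cluster led by Retnla and Cxcl10, with 6 UMIs in 72 cells against 210 UMIs in 152 cells, and a Ccl24 UMI in 3 and 21 of them. Without the highest cell of each library the class ratio was 0.183, compared with 0.132 with it. In the Arg1-led unnamed cluster the ratio was 0.8 (0.598 to 1.09), and 0.374 without the highest cells. That cluster had 272 cells in 10% Tet2-/- BMT and 49 in 10% Tet2+/+ BMT.

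The receptors of the secreted members were sparse in this sort. Ccr4, the receptor of Ccl17 and Ccl22, lay mostly in T cell-like cells (29 of 36 and 59 of 70 UMIs), at 11.4 CPM (7.67 to 16.4) and 16.5 CPM (12.5 to 21.2), with a UMI in 18 of 185 and 36 of 305 cells. Mature dendritic-like cells had 0 Ccr4 UMIs in 10% Tet2-/- BMT and 5 UMIs in 2 of 36 cells in 10% Tet2+/+ BMT, 9.04 CPM (2.93 to 21.1), an interval that overlaps that of T cell-like cells. Ccr8, also carried by T cells, was there at 8.29 and 8.1 CPM. Ccr3, the receptor of Ccl24, was highest among classes of 20 or more cells in osteoclast-like cells, at 11.7 and 10.7 CPM, with a UMI in 11 of 40 and 3 of 25 cells. The Ccr7 ligands Ccl19 and Ccl21a, made by stromal cells of lymph vessels and lymph nodes, had 20 and 10 UMIs and 4 and 2 UMIs in all kept cells. Ackr4, a scavenger receptor for those ligands, lay in epithelial-like cells at 66.5 and 48.6 CPM. Clusters of that class were led by Wfdc18 and Cyp2a5 and by Epcam and Il25. The markers Krt5, Krt14 and Krt13 did not pass the naming rule in either, so whether these cells are gingival epithelium is not known. Cx3cl1, the gene between Ccl22 and Ccl17, had 47 and 41 UMIs in all kept cells, of which 20 and 9 were in mature dendritic-like cells.

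In mature dendritic-like cells, of 20 eligible dendritic cell maturation genes out of 24, 2 were higher in 10% Tet2-/- BMT, 1 was lower and 17 lay between (median log2 ratio 0.12, against 0.01 over all eligible genes). The counts of this and the following lists stand beside the 4.92% higher and 3.12% lower over all eligible genes of the class. The higher ones were Il12b, a subunit of interleukin-12 and interleukin-23, at 1021 and 161 CPM (ratio 6.35, 5.1 to 7.99), and Tnfrsf4 at 120 and 65.1 CPM. The lower was Birc3, at 125 and 195 CPM. Il12b kept its call in 7 of 7 alternatives, Tnfrsf4 in 3 (ratios down to 1.08) and Birc3 in 4 (up to 0.704). Il4i1, an amino acid oxidase, and Traf1, a signalling adaptor, lay between with ratios of 1.31 (1.15 to 1.5) and 1.25 (1.09 to 1.43). Ccl5 was at 5382 and 7942 CPM, a ratio of 0.678 (0.65 to 0.707), inside the 1.5-fold rule. Without the highest cell of each library Il12b was at 545 and 75.9 CPM, a ratio of 7.18. With the highest doublet scores removed it was at 542 and 162 CPM, a ratio of 3.35. Its level thus rested on few cells, and Il12b is also on the list that names the class.

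Of 16 eligible genes out of 18 for cell migration and the cytoskeleton, only Ccr1 was past the rule, higher at 119 and 72.3 CPM, and the median log2 ratio was 0.07. The Ccr1 ratio of 1.65 was 1.53 without the highest cells and 1.22 by Xist and Y, both inside the rule, and reached 13.3 when cells needed 1000 UMIs. Actb, cytoplasmic actin, was at 16272 and 15519 CPM. Marcks and Lsp1, which act on the actin cytoskeleton, had ratios of 0.928 (0.842 to 1.02) and 0.872 (0.806 to 0.943). Of 10 eligible antigen presentation genes out of 11, H2-DMb2 and H2-Oa were higher and 8 lay between, with a median of 0.04. H2-DMb2 kept this call in 3 of 7 alternatives (ratios down to 1.46) and H2-Oa in 1 of 7 (down to 0.889). Cd74 was at 16906 and 16620 CPM and H2-Aa at 7037 and 6782 CPM. Of the type 1 dendritic cell list 3 of 10 genes were eligible, with Irf8 and Wdfy4 higher (458 against 248 CPM and 101 against 54.2 CPM). Irf8 kept this call in 3 of 7 alternatives (ratios down to 1.1) and Wdfy4 in 2 of 7 (down to 0.71). Of the type 2 and IL-4 response list 3 of 18 were eligible, with Mgl2 lower at 61.9 and 159 CPM.

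Ccl22 was at a higher level in 10% Tet2-/- BMT in mature dendritic-like cells both with and without an Il12b UMI. With an Il12b UMI, 15 cells of 10% Tet2-/- BMT had 4206 CPM of Ccl22 (3980 to 4441) and 8 cells of 10% Tet2+/+ BMT 690 CPM (549 to 857). Without one, 30 and 28 cells had 3014 CPM (2866 to 3168) and 851 CPM (767 to 943). The medians of the latter were 3.5 and 9 UMIs per cell, so the median went the other way from the summed level there.

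By pattern across 78 profiles of a cluster in a library, on log2(CPM + 10), the gene most like each member was sought among 5679 genes. These correlations describe clusters that share libraries and carry no p. Fscn1 was closest to Apol7c (r = 0.94), then Nudt17 and Cacnb3 (both 0.91), Tmem150c (0.89) and Adcy6 (0.87), of which Apol7c, Nudt17 and Cacnb3 are on the list that names the mature class. Ccr7 was closest to H2-Eb2 (0.86), Trim7 and Snn (both 0.85), Il4i1 (0.83) and Foxp4 (0.82). For Ccl22 the closest were Il12b (0.85), Il4i1 and Ramp3 (both 0.82), Arhgef40 (0.79) and Adam23 (0.78). Il4i1, a neighbour of both Ccr7 and Ccl22, and Il12b are on that naming list as well. Ccl17 was closest to Ccl22 (0.78), then Adam23 (0.75), Mmp12 and Eva1b (both 0.72) and Grasp (0.70). Ccl24 was closest to Ecm1 (0.82), Cfb (0.73), Cmklr1 (0.71), Mmp19 and Rgl1 (both 0.70), and its correlation with the other members ran from -0.03 to 0.07.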

How the data were processed

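Gingival CD11b+ cells of each group gave 1 droplet-based library of transcript 3' ends. The deposited matrices hold raw UMI counts per gene and barcode, empty barcodes included, made by the authors with Cell Ranger 6.1.2 on mm10 per the submitters' processing notes, while the matrix header names version 4. Barcodes with 500 UMIs, 250 genes and at most 10% mitochondrial UMIs were kept. Cells were clustered with scanpy 1.11.5 and leidenalg 0.10.2 (2000 variable genes, 30 components, 20 neighbours, resolution 1) without the 5 genes, in successive rounds, and clusters were named from markers. The naming rule was adjusted and further rounds were added after clusters had been seen. Scrublet called 0% and 2.96% of cells, so it did not work in 1 library, and no cell was removed as a doublet; removal of the 8% of highest score was an alternative.

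UMIs were summed per class and library. Intervals are exact (Poisson, Clopper-Pearson, conditional binomial for ratios) and cover counting error only. The rule by size was a ratio of 1.5 on log2(CPM + 10). In counts simulated with counting error only for mature dendritic-like cells (2459 genes), it caught 92.5% of 2-fold changes and 0.841% of unchanged genes. The simulation had no spread between cells and no minimum of 100 UMIs. These shares therefore do not give the error of the rule in the real class. No test was made, since each group is 1 library. A comparison in the leading class needed 50 cells per library, so the mature class was added after the data were seen. Pattern neighbours were the 5 genes of highest Pearson correlation. List genes were named by highest mean CPM or largest ratio, at most 6 a list. The members and lists were chosen with earlier results of these data known. Positions are from GENCODE M21 and promoters from RefSeq (3 of 5 genes matched). Barcodes under the minimum served only for free RNA.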

Additional observations from a re-analysis of the deposited data

How the results depend on the processing

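No paired analysis was possible because each group is 1 library. Small classes limit every ratio: the mature class had 45 and 36 cells, and 1 library per group gives no measure of spread between mice. The Ccl22 ratio in mature dendritic-like cells stayed higher under all 12 alternatives, from 3.82 (mean of per-cell CPM) to 4.88 (resolution 0.5), with 4.74 for Xist-carrying against Y-carrying cells and 4.75 in the cluster with all 12 markers. The alternative with a pseudocount of 1 CPM leaves the ratio unchanged by construction. Xist-carrying against Y-carrying cells still sets 1 sex marker against the other by library, so it is no check on sex. Y-carrying cells of both libraries were not among the 12, since 10% Tet2-/- BMT had 2 of them, which had less Ccl22 (144 against 837 CPM). Its ratio in conventional dendritic-like cells moved to 3.29 among Y-carrying cells of both libraries. The Ccl17 ratio in conventional dendritic-like cells was 1.71 at 1000 UMIs, 1.91 by per-cell mean, 1.71 for Xist-carrying against Y-carrying cells and 1.93 without the highest cells, and it reversed to 0.347 among Y-carrying cells, of which 10% Tet2-/- BMT had 6; the cause was not tested. The mature Ccl17 ratio, 1.02, became 1.56 at resolution 0.5, 1.42 at resolution 2, 2.32 with the members kept among the clustering genes, 2.3 at 1000 UMIs, 1.28 by per-cell mean, 0.872 by Xist and Y, 1.24 without the highest cells and 1.53 in the 12-marker cluster. Mature Ccr7 became 0.745 at 1000 UMIs and 0.951 by Xist and Y. Mature Fscn1 became 0.725 at resolution 2, 0.583 at 1000 UMIs and 0.771 in the 12-marker cluster. Ccl24 in macrophage-like cells became 0.422 at resolution 0.5, 0.434 by Xist and Y and 1.57 among Y-carrying cells. Ccr7 in B cell-like cells became 1.35 at resolution 2. Fscn1 in macrophage-like cells, 0.422, became 1.2 by per-cell mean, 0.128 by Xist and Y and 1.11 among Y-carrying cells.

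For shares of UMIs, Ccl17 in conventional dendritic-like cells became 62.3% at resolution 2 and 75.5% with free RNA subtracted in 10% Tet2-/- BMT, and 69.6% at resolution 0.5, 70% at 1000 UMIs and 93.4% with free RNA subtracted in 10% Tet2+/+ BMT. Free RNA was subtracted from the class and from the library total separately. What was taken from the total could exceed what the other classes held. Shares with free RNA subtracted can therefore be too high, and here and below they are not read as shifts. Ccl22 in the same class became 23.5% at resolution 0.5, 14.9% with members kept and 20.6% at 1000 UMIs, and 33.9% at resolution 0.5, 29.6% at 1000 UMIs and 23.9% with free RNA subtracted. Ccl24 in macrophage-like cells became 87% at 1000 UMIs and 39% with free RNA subtracted, and 70.3% at resolution 0.5 and 86.7% at 1000 UMIs. Ccr7 in B cell-like cells became 31.4% at resolution 0.5 and with members kept, 33.1% at resolution 2, 32.7% at 1000 UMIs, 28% without the 8% highest doublet scores and 36.8% with free RNA subtracted. In 10% Tet2+/+ BMT it became 36%, 34.1%, 29% and 38.8% at resolution 2, 1000 UMIs, without those doublet scores and with free RNA subtracted. Fscn1 in macrophage-like cells became 1.91% in 10% Tet2-/- BMT with free RNA subtracted. Mature dendritic-like cells were 0.333% of 10% Tet2-/- BMT cells at resolution 0.5. Genes past 1.5-fold in conventional dendritic-like cells numbered 105, against 51, when 10 CPM sufficed. H2-Oa reversed to 0.901 and 0.903 at resolutions 0.5 and 2 and 0.889 at 1000 UMIs. Wdfy4 reversed to 0.876 with members kept, 0.982 at 1000 UMIs and 0.71 by Xist and Y. The cause of the changes other than those with free RNA subtracted was not tested.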
